A study of Homo sapiens with 12 samples.

Results

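The interleukin-6 (IL-6) family is a group of secreted cytokines that signal through a common receptor chain, encoded by IL6ST. A ligand first binds its own receptor chain, IL6ST or a related signalling chain such as LIFR or OSMR joins the complex, and the bound Janus kinases JAK1, JAK2 and TYK2 phosphorylate the transcription factor STAT3. In fibroblasts that have stopped dividing after DNA damage, IL6 is a well-known component of the senescence-associated secretory phenotype, the set of inflammatory proteins and growth factors that such cells release. STAT3 raises the transcription of SOCS3, whose product binds IL6ST and the kinases and damps the signal.

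The genes described here were chosen by name: the ligands IL6, LIF, IL11 and CLCF1, the receptor chains IL6ST, IL6R, OSMR and LIFR, and STAT3. All 9 were found among the 16383 genes of the deposited table, 1 row each, and all 9 passed the filter of a mean of at least 10 normalized counts over the 12 libraries. A normalized count is a gene's read count divided by a factor for its library. RNA captured by its poly(A) tail was sequenced from IMR90 cells, an established human lung fibroblast line labelled wild type, in 4 groups of 3 libraries. Proliferating cells were the untreated control. The other 3 groups had received 20 Gy of ionizing radiation over 10 minutes, were treated on days 4, 6, 8 and 10 and were harvested on day 11. They were given DMSO, the solvent, or 2 µM palbociclib, which blocks the cell-cycle kinases CDK4 and CDK6, or 2 µM ruxolitinib, which blocks the kinases JAK1 and JAK2. All libraries come from 1 cell line, and nothing in the labels says whether replicates were separate cultures, so p-values measure only the spread between these libraries.

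The libraries held 14106799 to 21762412 recovered reads over the listed genes, and all 12 replicate pairs differed by more than counting noise (chi-square per gene of 1.98 to 25.1). The range was 2.95 to 17.1 for proliferating pairs, 2.43 to 2.81 for DMSO, 6.43 to 25.1 for palbociclib and 1.98 to 2.76 for ruxolitinib. The main fit shares 1 estimate of the spread over the 4 groups. Its errors for ruxolitinib minus DMSO therefore also carry the spread of the palbociclib and proliferating libraries. All 7 fibroblast markers were detected. Their summed level moved with the groups. It stood at 801761 to 835511 normalized counts in proliferating cells, 389972 to 400979 with DMSO, 620772 to 651892 with palbociclib and 496803 to 500422 with ruxolitinib. Not every marker followed the sum. On the log2 scale THY1 was 0.18 higher with DMSO than in proliferating cells, where the others were lower. LUM differed by -0.18 for ruxolitinib minus DMSO. The 5 epithelial markers summed to 10.5 to 43.2 and NKX2-1 was at 0 in every library. The 4 endothelial markers summed to 1681 to 1949, 2381 to 2544, 3500 to 4380 and 2241 to 2247 in the same order of groups, nearly all of it TEK. The 5 leukocyte markers also moved with the groups, between 543.7 and 1308, nearly all of it CD68. The part of these shifts in the results was not tested. Of the markers of cell state, CDKN1A was higher by 3.11 and MKI67 lower (-3.68) on the log2 scale in irradiated DMSO cells than in proliferating ones. They also differed between irradiated groups. Palbociclib minus DMSO was -0.98 for CDKN1A and -3.60 for MKI67. Ruxolitinib minus DMSO was -0.53 for MKI67, and CDKN1A was not called (0.12, adjusted p 0.328). Libraries A119 and A120 (palbociclib) and A126 (proliferating) lay apart from the others of their groups on the first component of within-group deviations, which held 27.1% of that variance. In A120 and A126 genes with an exon length of at least 8.41 kb sat lower than genes of at most 3.55 kb, by a median of -0.21 and -0.16 on the log2 scale, and in A119 higher by 0.18. IL6ST, LIFR, OSMR and STAT3 were also the lowest of their group in A120 and A126. The part of these libraries in each result was not tested beyond leaving them out. Differences are relative to the scaling in the deposited values. Scaling the libraries to 1 total moved the median gene by 0.23 for DMSO minus proliferating, -0.23 for palbociclib minus DMSO, -0.03 for ruxolitinib minus DMSO and -0.20 for palbociclib minus ruxolitinib. With that scaling, the share of calls that were higher went from 45.7% to 64.0%, from 53.9% to 15.4%, from 24.4% to 15.6% and from 56.4% to 15.7% in the same order.

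All members are annotated as protein-coding in GENCODE release 44 on hg38. IL6 (Entrez gene 3569) is at chr7:22725884-22732002 on the plus strand, LIF (3976) at chr22:30240453-30246759 on the minus strand, IL11 (3589) at chr19:55364382-55370463 on the minus strand and CLCF1 (23529) at chr11:67364168-67374177 on the minus strand. Of the receptor genes, IL6R (3570) is at chr1:154405193-154469450 on the plus strand, and the other 3 lie on chromosome 5, IL6ST (3572) at chr5:55935095-55995022 on the minus strand, OSMR (9180) at chr5:38845858-38945596 on the plus strand and LIFR (3977) at chr5:38474668-38608354 on the minus strand. STAT3 (6774) is at chr17:42313324-42388540 on the minus strand.

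The 250 bases before the RefSeq start of 3 members are shown because these genes had different patterns over the groups: IL6 was the member with the lowest share of its DMSO level under palbociclib, IL11 was the ligand that was lower after irradiation, and OSMR was the receptor gene that was lower with ruxolitinib. The windows are in build GRCh38.p14, at chr7:22726950-22727199 on the plus strand for IL6, chr19:55370464-55370713 on the minus strand for IL11 and chr5:38845762-38846011 on the plus strand for OSMR. Capitals mark matches, on either strand, to the NF-kB letters GGG, 3 bases of any kind and TTCC, or to TGANTCA for AP-1, TTGCNNAA for C/EBP or TTCNNNGAA for STAT factors.
IL6: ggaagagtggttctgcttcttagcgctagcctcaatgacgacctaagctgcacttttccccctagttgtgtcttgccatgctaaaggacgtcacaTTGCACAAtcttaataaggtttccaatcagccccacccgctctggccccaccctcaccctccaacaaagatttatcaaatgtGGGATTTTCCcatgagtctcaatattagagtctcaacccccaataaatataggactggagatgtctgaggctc
IL11: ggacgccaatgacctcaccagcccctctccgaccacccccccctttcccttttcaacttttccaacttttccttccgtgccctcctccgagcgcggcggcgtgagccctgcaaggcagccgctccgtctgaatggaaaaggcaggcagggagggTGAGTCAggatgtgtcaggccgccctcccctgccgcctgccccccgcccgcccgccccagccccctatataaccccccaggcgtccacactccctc
OSMR: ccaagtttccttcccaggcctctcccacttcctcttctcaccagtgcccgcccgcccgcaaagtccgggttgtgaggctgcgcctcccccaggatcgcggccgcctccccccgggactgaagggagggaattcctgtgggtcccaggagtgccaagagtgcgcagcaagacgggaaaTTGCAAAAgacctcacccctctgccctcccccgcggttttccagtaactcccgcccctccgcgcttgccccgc

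The IL6 window held an NF-kB match starting 73 bases before the start and a C/EBP match starting 155 bases before it. The IL11 window held an AP-1 match 96 bases before the start, and the OSMR window a C/EBP match 73 bases before it. The RefSeq table held windows for 7 of the 9 members, and LIF and CLCF1 were not among them. LIFR had 3 windows, with a C/EBP match in 1 and a STAT match in 2 of them, and the windows of IL6ST, IL6R and STAT3 held no match. Over all 35116 windows of that length, 5.67% held the NF-kB letters, 6.57% the AP-1 letters, 9.05% the C/EBP letters and 6.57% the STAT letters. The matches shown do not overlap each other, and a match describes letters only.

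Per kilobase of exon, IL6ST had the highest level in irradiated DMSO cells, at 1382 ± 45.8 normalized counts per kb (SD, n = 3). In proliferating cells IL6ST, at 1068 ± 176.2, and IL11, at 993.1 ± 70.1, differed by less than their spread, and IL11 was above IL6ST in A126. In DMSO cells OSMR followed at 807.2 ± 30.0, IL11 at 697.7 ± 16.7, LIF at 548.9 ± 51.0 and STAT3 at 325.6 ± 4.96 normalized counts per kb. CLCF1, at 158.2 ± 20.6, and IL6, at 142.0 ± 12.2, differed by less than their spread. LIFR stood at 62.5 ± 6.54 and IL6R, the binding chain for IL-6 itself, was the lowest member at 18.2 ± 3.38. By these lengths, irradiated fibroblasts held more RNA per kilobase for the shared chain and for LIF and IL11 than for IL6 and its own receptor. The lengths are unions of all annotated exons, at 4.321 kb for IL6 and 1.836 kb for CLCF1. The order of genes depends on that choice, and other lengths were not tried. Undivided, the DMSO means were 613.8 normalized counts for IL6, 290.4 for CLCF1, 1868 for IL11 and 2125 for LIF. In bulk RNA, fewer expressing cells and less RNA per cell cannot be told apart.

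**Figure D1:**
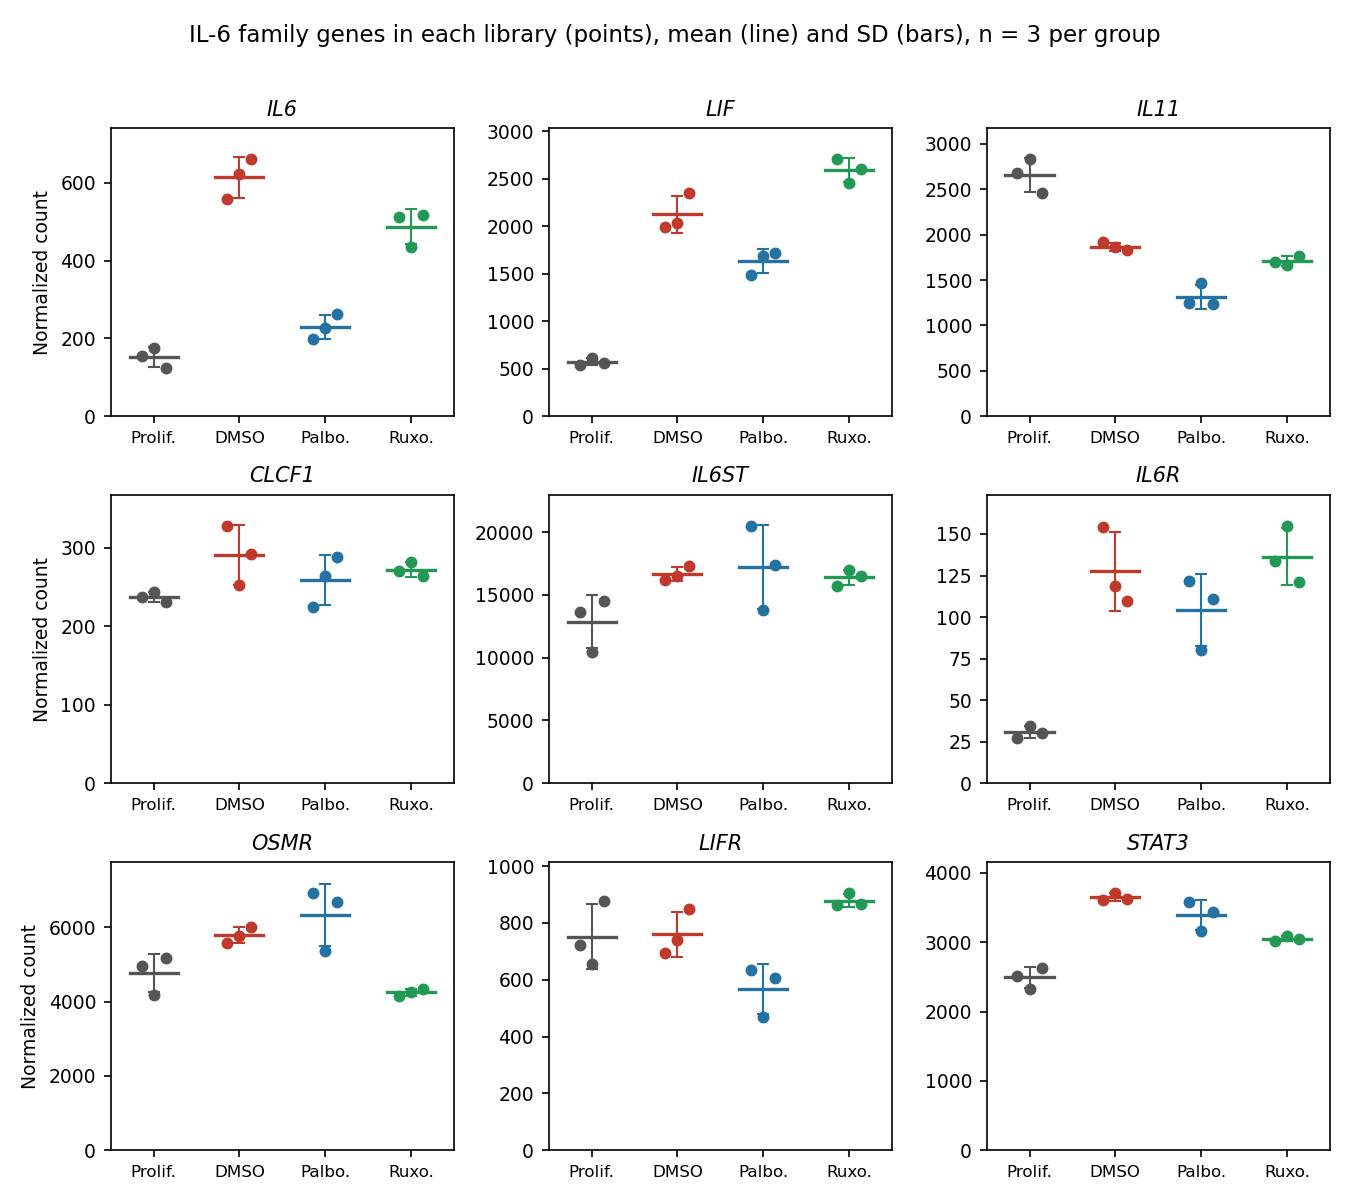
Normalized counts (vertical axes, each from 0) of the 9 genes in proliferating cells and in irradiated cells with DMSO, palbociclib or ruxolitinib (horizontal axes); points are libraries, lines means and bars SD, n = 3. The 4 groups of IL6 do not overlap, from at most 175.2 in proliferating cells to at least 557.3 with DMSO, whereas LIF is highest with ruxolitinib and IL11 highest in proliferating cells.

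Irradiated DMSO cells were compared with proliferating cells, the comparison that shows the family after induction of senescence. Proliferating cells were untreated and have no harvest day given, so radiation, solvent and time in culture cannot be told apart. IL6, LIF and IL6R rose by 2.02, 1.89 and 2.01 on the log2 scale, while IL11 fell by 0.51. In all, 7 members were higher and 1 was lower at an adjusted p under 0.05 (limma, Benjamini-Hochberg over 11242 genes). Over all genes tested 33.0% were called higher and 39.3% lower, and 72.4% in either direction, so that most genes of any kind passed this test. The median member differed by 0.39 against -0.05 for the median gene. Groups did not overlap for 8 of the 9 members, against 75.1% of all genes.

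Among the ligands, IL6 stood at 155.6, 175.2 and 124.7 normalized counts in proliferating libraries and at 557.3, 622.7 and 661.4 with DMSO. Every DMSO library was far above every proliferating library (log2 difference 2.02, SE 0.13, adjusted p 1.00e-09). LIF, a cytokine first known for its action on leukaemia and embryonic stem cells, stood at 541.6, 612.2 and 562.8 against 1994, 2029 and 2352. The groups were far apart, with an adjusted p of 4.98e-12 (log2 difference 1.89, SE 0.08). IL11, a cytokine that acts on stromal cells, ran the other way, from 2682, 2835 and 2462 in proliferating cells to 1917, 1859 and 1829 with DMSO. All 3 DMSO libraries were below all 3 proliferating ones (log2 difference -0.51, SE 0.07, adjusted p 7.84e-06). At the same total the IL11 difference was -0.28 (adjusted p 0.00324). CLCF1, a ligand of the ciliary neurotrophic factor receptor, stood at 236.6, 244.0 and 230.4 against 327.6, 252.2 and 291.4. Its difference was small (0.28, SE 0.11, adjusted p 0.0251) and lost the call when library A125, A127, A116 or A118 was left out, with adjusted p from 0.0533 to 0.138, while at the same total it was 0.51.

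Among the receptor chains, IL6R stood at 27.0, 34.4 and 30.5 normalized counts in proliferating libraries and at 154.4, 118.4 and 109.9 with DMSO (log2 difference 2.01, SE 0.18, adjusted p 5.57e-08). The lowest DMSO library was well above the highest proliferating one. IL6ST stood at 13653, 10477 and 14512 against 16205, 16515 and 17279, and the low proliferating value belonged to A126. The difference of 0.39 (SE 0.12, adjusted p 0.00982) became 0.24 with an adjusted p of 0.0522 without that library, and 0.61 at the same total. OSMR, the signalling chain for oncostatin M, rose by 0.28 (SE 0.09, adjusted p 0.00841), from 4188 to 5174 in proliferating libraries to 5590 to 6017 with DMSO, and the difference was 0.51 at the same total. LIFR, the chain that pairs with IL6ST for LIF, stood at 654.3 to 877.0 in proliferating libraries and 692.9 to 847.6 with DMSO, so the groups overlapped (log2 difference 0.02, 95% interval -0.23 to 0.27, adjusted p 0.868).

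STAT3 stood at 2519, 2330 and 2631 normalized counts in proliferating libraries and at 3608, 3712 and 3627 with DMSO. The DMSO libraries were close to each other and all above the proliferating ones (log2 difference 0.55, SE 0.06, adjusted p 2.68e-07).

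Palbociclib was compared with DMSO to show what CDK4 and CDK6 inhibition changed in irradiated cells. IL6, IL11, LIFR and LIF fell, by 1.42, 0.51, 0.42 and 0.38 on the log2 scale, and no member rose. These are 4 of 9 members called lower and 0 higher, where 22.3% of all genes were lower and 26.0% higher (48.3% in either direction). At the same total 7 of the 9 members were called. That scaling moved the median gene by -0.23 and took the share of all calls that were higher from 53.9% to 15.4%. The share of all genes called with it is not given here. Groups did not overlap for 5 members, against 54.8% of all genes. The median member differed by -0.30 and the median gene by 0.02.

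IL6 and LIF lay between the DMSO and proliferating levels with palbociclib, and IL11 and LIFR lay below both. IL6 stood at 199.2, 226.6 and 262.0 normalized counts with palbociclib, below every DMSO library and above every proliferating one. It stayed 0.60 above proliferating cells (SE 0.13, adjusted p 0.000561), beside 2.02 with DMSO. Without A119, A120 and A126 the difference from proliferating cells was 0.91, but that fit leaves A121, at 262.0, as the only palbociclib library. LIF stood at 1484, 1687 and 1722, below the DMSO libraries but still 1.51 above proliferating cells (SE 0.08, adjusted p 5.40e-11). Its difference from DMSO was -0.38 (SE 0.08, adjusted p 0.000782), and -0.61 at the same total. IL11 stood at 1243, 1471 and 1235, so palbociclib took it further from the proliferating level (-0.51 against DMSO, SE 0.07, adjusted p 2.63e-05, and -1.02 against proliferating cells, adjusted p 2.18e-09). These comparisons share libraries, so the values stand side by side and their differences between genes were not tested.

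LIFR stood at 633.0, 468.5 and 604.9 normalized counts with palbociclib, all below the DMSO libraries (log2 difference -0.42, SE 0.12, adjusted p 0.00750). The lowest value was that of A120, and the difference was -0.29 (adjusted p 0.0306) without it and -0.65 at the same total. The other receptor genes were not called. IL6R stood at 121.7, 79.9 and 111.0, which overlapped with DMSO (-0.30, 95% interval -0.68 to 0.08, adjusted p 0.186), and it remained 1.72 above proliferating cells (adjusted p 3.17e-07). IL6ST ranged from 13819 in A120 to 20509 in A119, wider than all 3 DMSO libraries (0.03, interval -0.23 to 0.29, adjusted p 0.854), and its sign turned at the same total. OSMR stood at 6928, 5368 and 6676, with the low value in A120 (0.12, interval -0.07 to 0.30, adjusted p 0.277). Without A120 the OSMR difference was 0.23 (adjusted p 0.0127), and at the same total it was -0.11, so no direction is given. CLCF1 overlapped with DMSO (-0.17, adjusted p 0.214). At the same total CLCF1 (-0.39, adjusted p 0.0079) and IL6R (-0.52, adjusted p 0.0247) were called lower. STAT3 stood at 3583, 3166 and 3435 (-0.11, interval -0.22 to 0.01, adjusted p 0.131), and it was called lower at the same total (-0.33, adjusted p 7.48e-05) and the same upper quartile (-0.17, adjusted p 0.0123).

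Ruxolitinib was compared with DMSO to show what Janus kinase inhibition, which acts at the step directly below these receptors, changed. OSMR and STAT3 fell, by 0.45 and 0.26 on the log2 scale, and LIF rose by 0.29. These 3 calls of 9 stand beside 4.52% of all genes called in either direction, 3.42% lower and 1.10% higher. Groups did not overlap for 6 members, against 31.9% of all genes. The median member differed by -0.09, and the median gene by -0.003. The number of members called moved with the fit. It was 6 when only the 2 groups were fitted, where 1841 of the 11242 genes were called in place of 508. Without A117, A122 or A124 it was 1, and the share of all genes called without those libraries is not given here.

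OSMR stood at 4149, 4264 and 4343 normalized counts with ruxolitinib and at 5590, 5766 and 6017 with DMSO. The groups were well apart (log2 difference -0.45, SE 0.09, adjusted p 0.00682). The ruxolitinib libraries lay within the range of proliferating ones, 4188 to 5174, except A122, which was below it. The low end of that range was A126, while A125 and A127, at 4954 and 5174, were above all ruxolitinib libraries. STAT3 stood at 3014, 3094 and 3050, below all DMSO and above all proliferating libraries. Its differences were -0.26 from DMSO (SE 0.06, adjusted p 0.0139) and 0.29 from proliferating cells (adjusted p 0.000209), the second being 0.50 at the same total and 0.46 with upper quartiles made equal. Leaving out A117, A118, A122 or A124 raised the adjusted p for STAT3 against DMSO to between 0.0538 and 0.0731, with differences of -0.26 to -0.25.

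LIF stood at 2709, 2458 and 2606 normalized counts with ruxolitinib, each above the highest DMSO library at 2352. The rise of 0.29 (SE 0.08, adjusted p 0.0414) was near the threshold: the adjusted p was 0.0687 at the same total, 0.0549 with no filter and 0.109 without a variance trend. It was also above 0.05 in 8 of the fits that left out 1 library, those without A125, A127, A116, A117, A121, A122, A123 or A124, with values up to 0.195. The count tests called it, with adjusted p 0.0296 in edgeR and 0.00936 in DESeq2. IL6 stood at 511.5, 434.9 and 516.1, each below the lowest DMSO library at 557.3, but was not called (-0.33, 95% interval -0.60 to -0.06, adjusted p 0.191). It was called when only the 2 groups were fitted (adjusted p 0.00143) and without A119, A120 and A126 (adjusted p 0.0112), and over all alternatives its adjusted p ranged up to 0.529. IL6 remained 1.69 above proliferating cells (adjusted p 8.35e-09).

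The remaining members were not called with ruxolitinib. IL11 stood at 1700, 1665 and 1765, below the DMSO libraries (-0.13, interval -0.28 to 0.02, adjusted p 0.406). LIFR stood at 862.6, 905.8 and 868.0, above the DMSO libraries (0.21, interval -0.03 to 0.46, adjusted p 0.406). IL6R overlapped with DMSO at 120.9 to 154.9 (0.10, interval -0.28 to 0.48, adjusted p 0.848), as did CLCF1 at 263.5 to 281.8 (-0.09, adjusted p 0.764) and IL6ST at 15746 to 16959 (-0.02, interval -0.28 to 0.24, adjusted p 0.960).

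**Figure D2:**
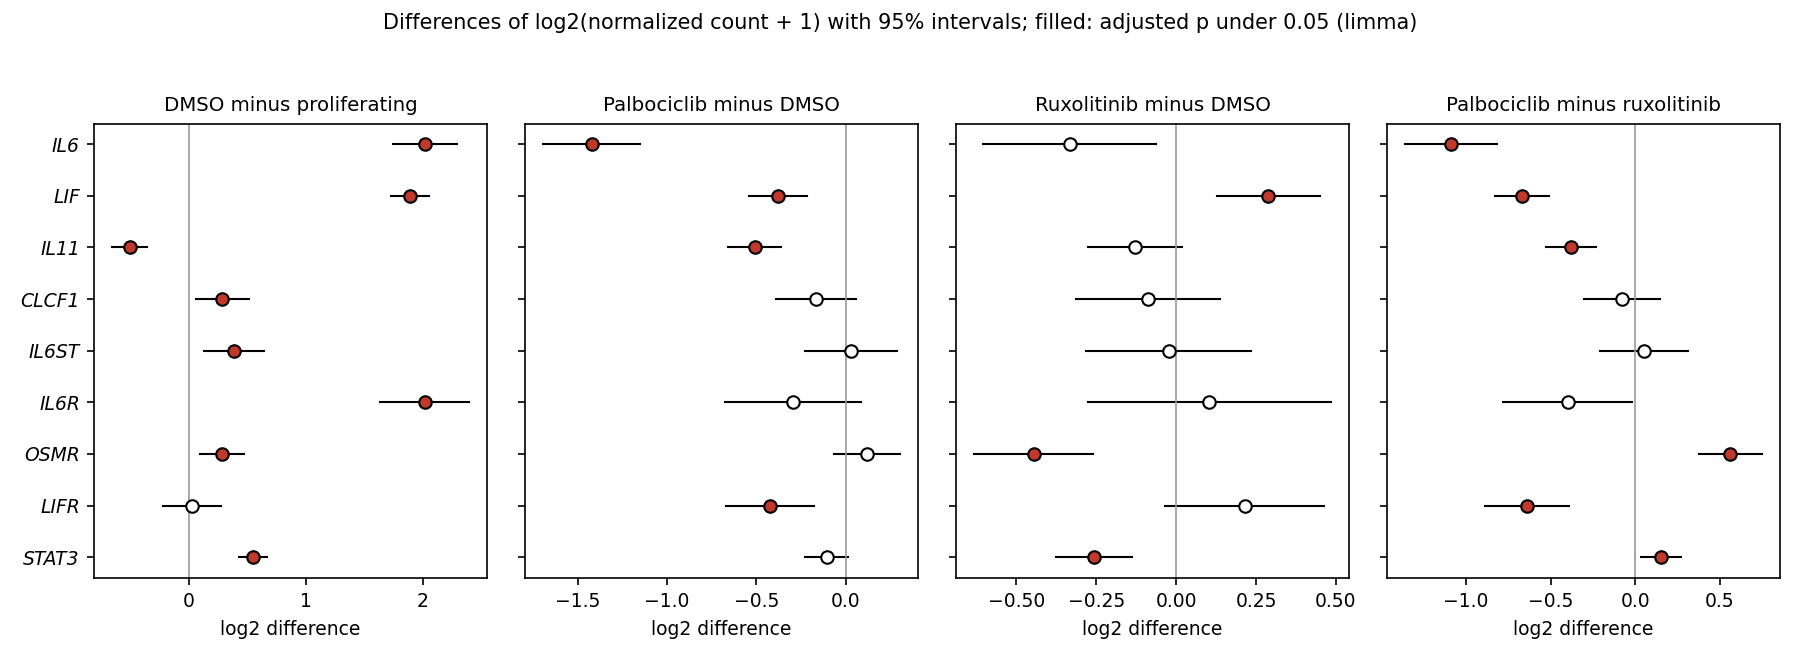
Differences of log2(normalized count + 1) for each gene (rows) in 4 comparisons (panels, horizontal axes on separate scales); points are estimates, bars 95% intervals from limma, and filled points have an adjusted p under 0.05. LIF lies at -0.38 with palbociclib and 0.29 with ruxolitinib, and OSMR is lower with ruxolitinib (-0.45) but not called with palbociclib.

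The inhibitors, both at 2 µM on the same days, were then compared directly. IL6, LIF, LIFR and IL11 were lower with palbociclib than with ruxolitinib, and OSMR and STAT3 were higher. These 6 calls, 4 lower and 2 higher, stand beside 17.6% of all genes lower, 22.8% higher and 40.4% in either direction. Groups did not overlap for 6 members, against 51.8% of all genes. The difference was -1.09 for IL6 (SE 0.13, adjusted p 7.56e-06), -0.67 for LIF (SE 0.08, adjusted p 5.81e-06), -0.64 for LIFR (SE 0.12, adjusted p 0.000489) and -0.38 for IL11 (SE 0.07, adjusted p 0.000482, and -0.58 at the same total). In each of these 4 genes every palbociclib library was below every ruxolitinib library. OSMR was 0.56 higher with palbociclib (SE 0.09, adjusted p 0.000116), and the groups did not overlap, with 0.36 at the same total. The STAT3 difference of 0.15 (SE 0.06, adjusted p 0.0415) was not stable, with the call kept in 8 of 23 alternatives. It was -0.05 (adjusted p 0.441) at the same total, and the adjusted p was 0.0765 in edgeR and 0.136 without A119. IL6R (-0.40, interval -0.78 to -0.02, adjusted p 0.0864), CLCF1 (-0.08, interval -0.30 to 0.15) and IL6ST (0.05, interval -0.21 to 0.31) were not called.

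Each inhibitor group was also compared with proliferating cells, which share libraries with the comparisons above. With palbociclib 6 members were higher and 2 lower than in proliferating cells, where 35.2% of all genes were higher, 38.6% lower and 73.8% either. With ruxolitinib 5 were higher and 1 lower, where 32.6% were higher, 39.5% lower and 72.2% either. Groups did not overlap for 7 members in each, against 70.9% and 76.2% of all genes. LIFR was lower with palbociclib than in proliferating cells (-0.40, SE 0.12, adjusted p 0.00575), and IL11 was lower with ruxolitinib (-0.63, SE 0.07, adjusted p 6.41e-07).

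The order of levels over the groups is given here with neighbours that limma did not separate joined. For IL6 it ran from proliferating through palbociclib to ruxolitinib and DMSO, the last pair joined. For LIF it ran from proliferating through palbociclib and DMSO to ruxolitinib, and for IL11 from palbociclib through ruxolitinib and DMSO, joined, to proliferating. For OSMR, ruxolitinib and proliferating were joined at the low end (-0.16, adjusted p 0.111) and DMSO and palbociclib at the high end. The low-end pair was called different in 3 of 23 alternatives, and its difference ranged from -0.25 to 0.0435 over all of them. For LIFR, palbociclib was below the other groups, among which none was called different. In the alternatives LIFR with ruxolitinib was called above proliferating cells in 7 of 23 and above DMSO in 2 of 23. For IL6R the 3 irradiated groups were joined above proliferating cells. The same order held for IL6ST, but there the palbociclib and proliferating libraries overlapped. Without A126 the IL6ST calls for DMSO and for ruxolitinib against proliferating cells were lost (adjusted p 0.0522 and 0.0760). For CLCF1 only DMSO and proliferating cells were separated, a call kept in 19 of 23 alternatives. Ruxolitinib was called above proliferating cells in 5 of 23 for CLCF1. For STAT3 it ran from proliferating through ruxolitinib to palbociclib and DMSO, the last pair joined. The step from ruxolitinib to palbociclib for STAT3 was called in 8 of 23 alternatives. That from DMSO to ruxolitinib for LIF was called in 12 of 23.

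The other genes of the pathway were taken from 6 lists of 65 genes in all, of which 59 passed the filter. Among the 10 ligands and receptors outside the members, 6 passed the filter. OSM, which encodes the ligand of OSMR, held no reads in proliferating cells and 4.63 to 10.7 normalized counts with DMSO, CNTF and CNTFR were below the filter, and IL27 was not in the table. Against proliferating cells 2 of the 6 tested genes were higher with DMSO, a share near the 33.0% of all genes called higher. CTF1, a ligand of LIFR, stood at 228.7 to 266.0 normalized counts against 86.5 to 87.6 (log2 difference 1.46, adjusted p 3.09e-09). EBI3, a subunit of IL-27, stood at 19.7 to 23.8 against 1.04 to 4.76. Palbociclib raised 2 and lowered 1 of the 6, a share near the 48.3% of all genes called in either direction. IL11RA, the binding chain for IL-11, rose from between 191.8 and 230.6 with DMSO to between 264.5 and 349.2 (0.60, SE 0.14, adjusted p 0.00201, and 0.38 at the same total) while IL11 itself fell. IL31RA, which pairs with OSMR in the receptor for IL-31, fell from between 49.7 and 63.3 with DMSO to between 7.99 and 14.2 (-2.21, SE 0.25, adjusted p 3.46e-06). With ruxolitinib IL31RA stood at 20.8 to 34.7 (-0.95, adjusted p 0.0374), a call kept in 14 of 22 alternatives. Those that lost it included the fits without A125, A116, A117, A118, A122, A123 or A124 (adjusted p 0.0541 to 0.198).

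Of 12 signal transducers, 6 were higher and 3 lower with DMSO than in proliferating cells, where 72.4% of all genes were called. STAT2, also a mediator of interferon signals, rose by 1.47 (adjusted p 1.27e-10). Of the kinases bound to these receptors, JAK1 was lower with DMSO (-0.23, adjusted p 0.00837), a call kept in 20 of 23 alternatives. Its sign turned at the same total, and its adjusted p was 0.0502 without A127. JAK2 (-0.29, adjusted p 0.0688) and TYK2 (-0.11, adjusted p 0.0959) were not called. None of the 3 was called with either inhibitor against DMSO. Palbociclib raised 2 and lowered 3 of the 12 genes, where 48.3% of all genes were called. Ruxolitinib raised none and lowered 4, where 4.52% were called. JAK3, a kinase that serves receptors of another cytokine family, stood at 42.8 to 55.6 normalized counts with DMSO, 46.2 to 55.8 with palbociclib, 23.4 to 25.5 with ruxolitinib and 21.8 to 23.3 in proliferating cells. It was lower with ruxolitinib than with DMSO (-0.96, SE 0.18, adjusted p 0.00543) and higher with palbociclib than with ruxolitinib (1.04, SE 0.18, adjusted p 0.000355).

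Of the 8 tested negative regulators, 6 were lower and 1 was higher with DMSO than in proliferating cells, where 39.3% of all genes were lower and 33.0% higher. They were led by SOCS1 (-2.06, adjusted p 3.62e-08) and SOCS2 (-1.58, adjusted p 1.43e-10). SOCS3 stood at 593.5, 654.3 and 633.2 normalized counts in proliferating libraries and 491.0, 546.9 and 577.0 with DMSO, a difference of -0.22 (adjusted p 0.0477) that was 0.01 at the same total. That call was kept in 9 of 23 alternatives. Those that lost it included edgeR (adjusted p 0.124) and DESeq2 (0.137). They also included the fits without A126, A127, A116, A117, A121, A122, A123 or A124 (0.0523 to 0.197). SOCS3 stood at 281.1, 364.5 and 325.1 with palbociclib and 317.1, 298.9 and 278.8 with ruxolitinib. Both inhibitor groups were below all DMSO libraries, and the inhibitors overlapped (0.11, SE 0.10, adjusted p 0.376). Palbociclib lowered 3 of the 8 genes (22.3% of all genes were lower), SOCS2 by the most (-1.19, adjusted p 2.68e-08), and ruxolitinib lowered SOCS3 and no other (3.42% of all genes were lower). SOCS2 with ruxolitinib differed from DMSO by 0.03 (adjusted p 0.920).

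Of 11 tested STAT3 target genes, 6 were higher and 3 lower with DMSO than in proliferating cells, where 72.4% of all genes were called. Palbociclib raised 4 and lowered 6, where 26.0% of all genes were higher and 22.3% lower. Ruxolitinib raised none and lowered 5, where 1.10% were higher and 3.42% lower. NNMT, which encodes nicotinamide N-methyltransferase, stood at 463.2, 415.5 and 482.2 normalized counts with DMSO, 847.7, 1106 and 895.4 with palbociclib and 222.2, 218.8 and 240.0 with ruxolitinib. It went in opposite directions with the inhibitors, and they differed by 2.05 (SE 0.11, adjusted p 1.59e-09). VEGFA, a vascular growth factor, was 0.54 higher with palbociclib than with ruxolitinib (adjusted p 8.43e-07), and 0.34 at the same total. PIM1, a kinase gene, was lower with palbociclib (-0.74, adjusted p 9.02e-06) and with ruxolitinib (-0.51, adjusted p 0.00286). IL4R, the receptor chain for interleukin-4, was lower with palbociclib (-0.69, adjusted p 7.83e-08). The median over the list was -0.27 with palbociclib and -0.24 with ruxolitinib, beside 0.02 and -0.003 over all genes.

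**Figure D3:**
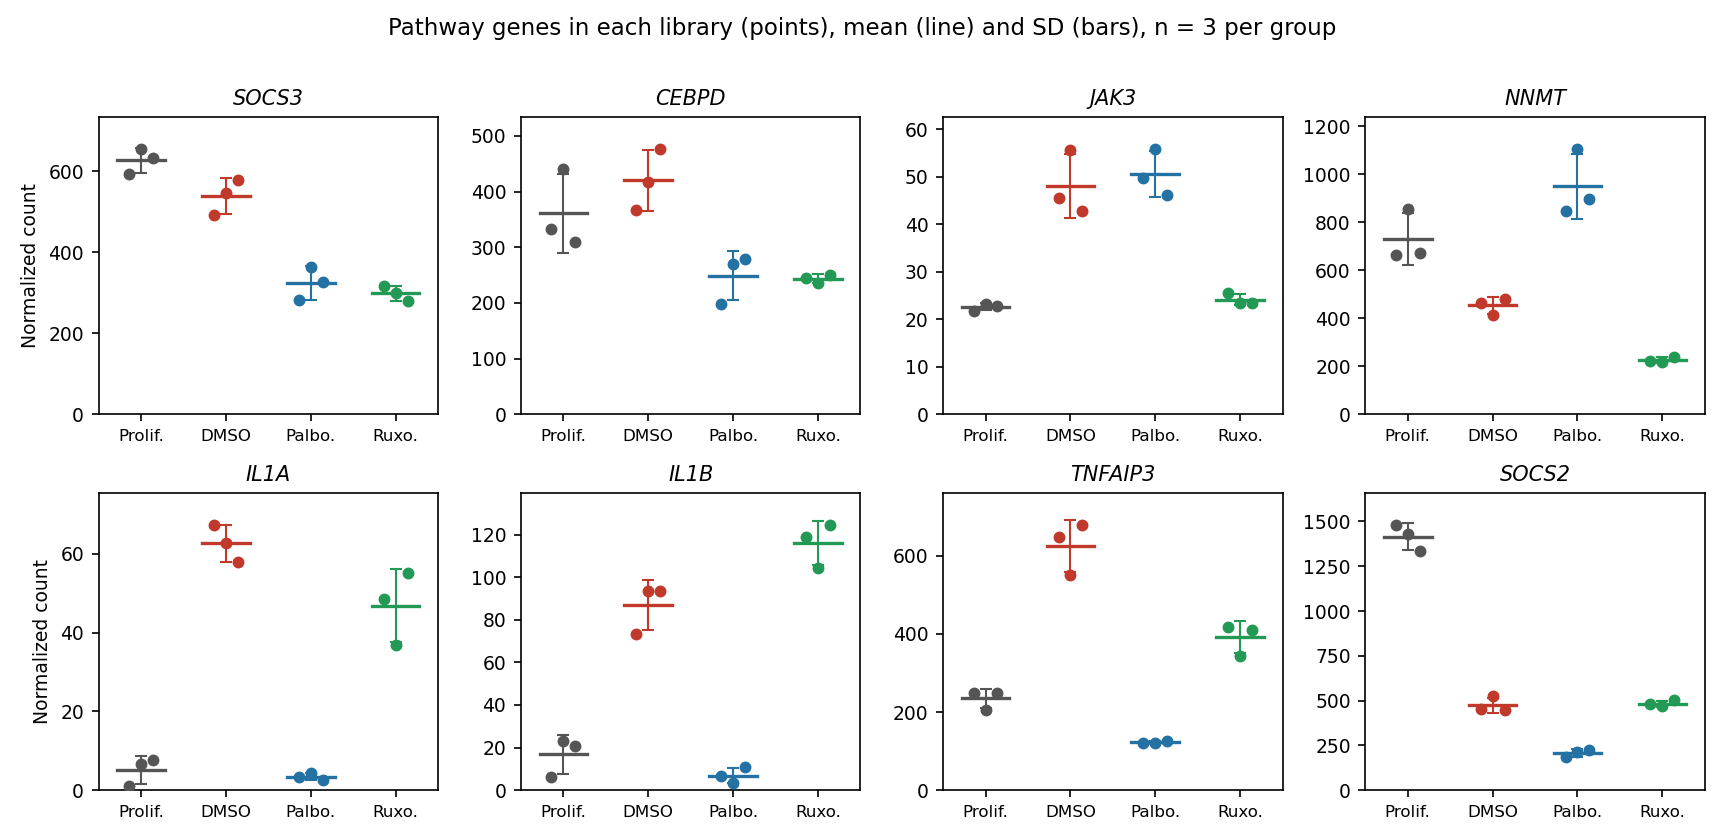
Normalized counts (vertical axes, each from 0) of 8 pathway genes by group (horizontal axes); points are libraries, lines means and bars SD, n = 3. SOCS3 and CEBPD are lower with both inhibitors than with DMSO, NNMT moves in opposite directions, and IL1A and IL1B are low with palbociclib but not with ruxolitinib.

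Of 18 genes that act on IL6 transcription or on its mRNA, palbociclib lowered 13 and raised 1, where 22.3% of all genes were lower, and ruxolitinib lowered 3 and raised none, where 3.42% were lower. The list median was -0.57 with palbociclib and -0.11 with ruxolitinib. IL1A, an upstream cytokine of the secretory phenotype, stood at 67.3, 62.7 and 57.8 normalized counts with DMSO, 3.32, 4.38 and 2.66 with palbociclib and 48.6, 36.9 and 55.0 with ruxolitinib. IL1B stood at 73.2 to 93.7, 3.28 to 10.7 and 104.4 to 124.5 in the same order. The palbociclib libraries of both genes lay within or below the proliferating range, 1.04 to 7.62 for IL1A and 6.23 to 23.3 for IL1B. CEBPB, a C/EBP factor, was 0.75 higher with DMSO than in proliferating cells (adjusted p 3.38e-05), lower with palbociclib than with DMSO (-0.40, adjusted p 0.0111, with -0.63 at the same total and -0.23 without A119, A120 and A126) and not called with ruxolitinib (-0.15, adjusted p 0.618). CEBPD, another C/EBP factor, fell with both, from 367.2, 417.9 and 476.4 to 198.1, 269.3 and 278.9 with palbociclib (-0.76, adjusted p 0.000469) and 244.6, 235.0 and 250.8 with ruxolitinib (-0.78, adjusted p 0.00422).

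Of the 4 genes for shedding of the IL-6 receptor, 3 were higher with DMSO than in proliferating cells, where 33.0% of all genes were higher and 72.4% called in either direction. ADAM17, the main sheddase, rose by 0.32 (adjusted p 0.00223, and 0.55 at the same total), and RHBDF2, which assists its maturation, by 1.17 (adjusted p 1.34e-07). RHBDF2 was also 0.34 higher with palbociclib than with DMSO (adjusted p 0.0215), a call kept in 17 of 23 alternatives. Those that lost it included the same total and the fits without A116, A117, A120 or A121.

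**Figure D4:**
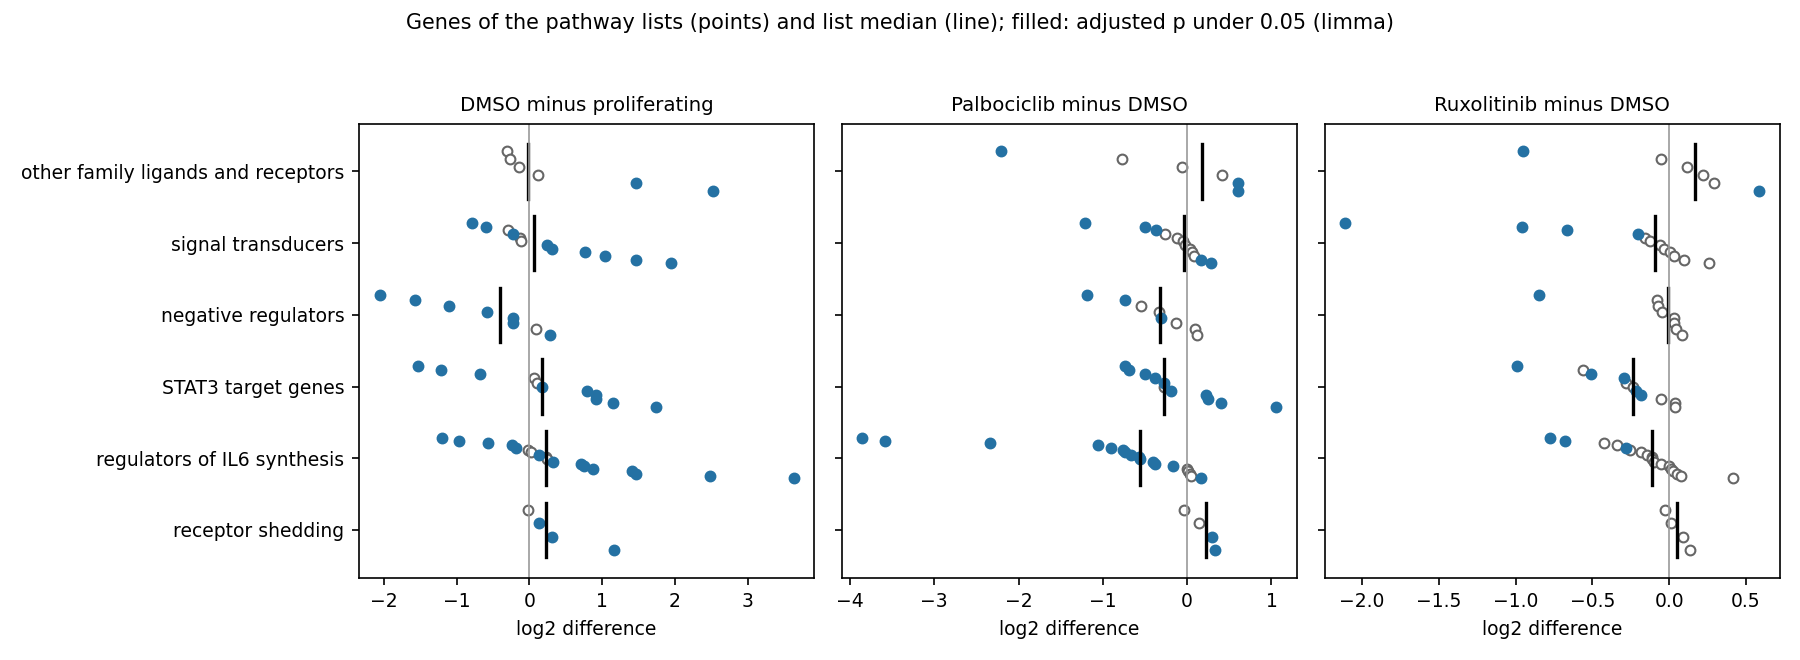
Differences of log2(normalized count + 1) of the 59 tested pathway genes (points) in 6 lists (rows) and 3 comparisons (panels, horizontal axes on separate scales); vertical lines are list medians and filled points have an adjusted p under 0.05 in limma. The list of IL6 regulators has its median at -0.57 with palbociclib and -0.11 with ruxolitinib.

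The genes whose log2 levels followed a ligand most closely over the 12 libraries were found by Pearson r, as a description, since the 12 points fall into 4 groups of shared treatment. For IL6 they were CD68, CPT1A, IRS2, CXCL8 and PLIN2 (r from 0.983 to 0.989). CXCL8, a neutrophil chemokine, had group means of 72.1 (proliferating), 1691 (DMSO), 192.9 (palbociclib) and 1585 (ruxolitinib). CD68, a lysosomal protein also used as a macrophage marker, had means of 548.7, 1232, 740.6 and 1093 in that order. The 5 leukocyte markers, CD68 among them, summed to 543.7 to 569.6, 1223 to 1308, 697.2 to 805.7 and 1070 to 1149, and their part in the IL6 pattern was not tested. CD14, another of the 5, had means of 4.03, 28.2, 13.0 and 16.0 in the same order, and was higher with DMSO than in proliferating cells (2.71, SE 0.45, adjusted p 5.40e-05) and lower with palbociclib than with DMSO (-1.14, SE 0.45, adjusted p 0.0472). PTPRC, the general leukocyte marker, had means of 0.66, 4.47, 3.98 and 2.19. LYZ had means of 0.37 to 2.78, and CD3E was at 0 in every proliferating and DMSO library. No alternative setting was run for these markers. For LIF they were ZNF219, PAMR1, DNAI3, JUP and BDKRB2 (r from 0.993 to 0.995), and all 5 had their highest group mean with ruxolitinib. For IL11 they were NEK2, MDK, BIRC5, CCDC86 and ASF1B (r from 0.986 to 0.989). NEK2 and BIRC5 act in mitosis, and the NEK2 group means were 979.3 (proliferating), 91.3 (DMSO), 7.92 (palbociclib) and 51.7 (ruxolitinib).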

How the data were processed

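The authors deposited 1 table of gene counts after normalization (a signal, per the file headers). The submitters' processing notes name Trimmomatic 0.38.1, HISAT2 2.2.1, featureCounts 2.0.3, DESeq2 2.11.40.8 and builds hg38 and GRCh38, without roles. The annotation is not given in the sources used here. Columns carry a group and a library number (A116 to A127), no replicate number. In each column all values above 0 (160380 of 160380, tolerance 0.01) were whole multiples of 1 step, so whole reads were recovered. The step of A116 is close to 1, which shows little alone. The table ends at Entrez gene 140467, so totals are not full depths.

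R 4.3.3 and limma 3.58.1 were used. The model held 4 group means over 12 libraries and a variance trend, on the scale log2(normalized count + 1), with genes at a mean of at least 10 (11242) and a call at an adjusted p under 0.05. Fold changes understate low genes. The limma step was tested on simulated data. Alternatives were pseudocounts of 0.1 and 5, no filter or a mean of 50, 2 other scalings, no trend, 2-group fits, edgeR 4.0.16 and DESeq2 1.42.0 on recovered reads, and leaving out each library. Leaving out A119, A120 and A126 together was chosen after seeing the data. edgeR called 8150, 5374 and 556 genes for DMSO against proliferating cells, palbociclib against DMSO and ruxolitinib against DMSO. Members and lists were chosen with earlier results of these data known. Named genes are the members, up to 2 called genes of largest change per list, direction and comparison, 8 fixed genes (SOCS3, JAK1, JAK2, TYK2, IL11RA, IL1A, IL1B, CEBPB) and 5 like genes per ligand. The names of OSM, CNTF, CNTFR and IL27 complete a list. SOCS2 with ruxolitinib and CEBPD with palbociclib lie outside the rule, named with their values known. Lengths are unions of GENCODE exons. Promoter windows are RefSeq's. Some genes of the lists are counted but not reported by name here.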

Additional observations from a re-analysis of the deposited data

How the results depend on the processing

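No paired analysis was possible because the table's columns carry no replicate number. Of 54 member results (9 genes in 6 comparisons), 35 were called, and 29 of these kept direction and call under every alternative run. The other 6 were CLCF1 and IL6ST for DMSO minus proliferating, IL6ST for ruxolitinib minus proliferating (0.22, adjusted p 0.0760 without A126), LIF and STAT3 for ruxolitinib minus DMSO and STAT3 for palbociclib minus ruxolitinib. The cause of these changes was not tested.

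At the same total, the sign turned for DMSO minus proliferating in SOCS3 (0.00723) and JAK1 (0.00328), for palbociclib minus DMSO in IL6ST (-0.20), OSMR (-0.11) and CCND1 (-0.000932), for palbociclib minus ruxolitinib in IL6ST (-0.15), STAT3 (-0.0500) and CCND1 (-0.0161), and for ruxolitinib minus proliferating in OSMR (0.0435). At the same upper quartile it turned in IL6ST (-0.0311 for palbociclib minus DMSO and -0.0241 for palbociclib minus ruxolitinib) and in OSMR (0.00836 for ruxolitinib minus proliferating). Without A119, A120 and A126 together it turned in LIFR (-0.0710, DMSO minus proliferating) and CLCF1 (0.0829, palbociclib minus ruxolitinib). That alternative was chosen after seeing the data, and its single palbociclib library is assumed to vary like the other groups.

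Leaving out 1 library at a time, the differences with a changed sign ranged from -0.0710 to 0.14 for LIFR (DMSO minus proliferating), -0.10 to 0.18 for IL6ST (palbociclib minus DMSO), -0.18 to 0.00326 for CLCF1 and -0.0473 to 0.00623 for IL6ST (ruxolitinib minus DMSO), and -0.16 to 0.0203 for CLCF1 and -0.0819 to 0.20 for IL6ST (palbociclib minus ruxolitinib).

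For palbociclib minus DMSO, the same total gave 7 members called in place of 4, and 3 pathway genes higher and 41 lower in place of 11 and 26. Over all genes it took the share of calls that were higher from 53.9% to 15.4%. For palbociclib minus ruxolitinib it gave 4 higher and 34 lower in place of 10 and 14, and the same upper quartile gave 23 lower. Over all genes the share of calls that were higher went from 56.4% to 15.7% at the same total and to 38.7% at the same upper quartile. For ruxolitinib minus DMSO, 3 members and 508 of all genes were called as reported. With only the 2 groups compared, 6 members and 1841 of all genes were called. Without 1 library, 1 to 3 members were called. The share of all genes called is not given here for fits that left out libraries or used no filter. In that comparison 1 pathway gene was higher as reported, 0 with no filter on low values, 3 with only the 2 groups, 2 in DESeq2, 2 without A119, A120 and A126, and 0 to 2 without 1 library, while the number lower went from 14 to between 9 and 16. Depth limits the low genes most, such as IL6R in proliferating cells, at 27.0 to 34.4 normalized counts.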
